A study of Mus musculus with 12 samples.

Results

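Fatty acids are burned by beta-oxidation, a cycle of enzymes that shortens an activated fatty acid inside mitochondria or, for very long chains, inside peroxisomes. Peroxisome proliferator-activated receptors (PPARs) are nuclear receptors that bind fatty acids and, in fasted liver and muscle, switch on genes for fatty acid uptake, oxidation and sparing of glucose. The brain runs mainly on glucose, and in cerebellum beta-oxidation enzymes are known mostly from glia and blood vessels. The 37 genes described here were chosen by name: enzymes and carriers of mitochondrial and peroxisomal beta-oxidation, the carnitine shuttle that brings fatty acids into mitochondria, the PPARs and their classic targets. All 37 were found by symbol among the 54752 genes of the count table, and 36 passed the filter on low counts. The exception was Cd36, a fatty acid transporter, with between 0 and 12 reads per mouse.

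The data were read counts per gene from poly(A) RNA of cerebellar cortex of 12 male mice, wild-type F1 hybrids of C57BL6J and FVB, at 12 weeks. 4 mice ate ad libitum (AL), 4 were on dietary restriction (DR) and 4 on a ketogenic diet (KD), a high-fat, low-carbohydrate diet whose composition is not given in the sources used here. AL mice had food at all times, and DR mice received a reduced portion once a day just before the dark phase. DR mice were killed early in the dark phase without that day's meal, so the effect of the regimen and of the hours since the last meal cannot be told apart. AL and DR mice were picked for RNA quality from a larger set. The hour at which KD mice were killed was not analysed here.

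Total counts were between 31712084 and 40798644 per library, with a median of 36674269, and all 18 pairs of mice on the same diet differed by more than counting noise. Defining markers of Purkinje cells, granule cells and Bergmann glia were present in all mice, whereas 3 of 6 choroid plexus markers and 2 of 4 markers of cerebellar nuclei neurons were under 1 CPM (counts scaled by library size with edgeR's TMM factors). 8 markers of Bergmann glia and astrocytes summed to between 2698 and 2833 CPM on AL, 2435 and 2505 on DR, and 2601 and 2722 on KD. Of the 8, 3 fell in DR against AL, while Gfap, Gdf10, Aldh1l1 and Slc1a2 overlapped between AL and DR mice. 6 Purkinje cell markers summed to between 2481 and 2640 CPM on AL, 2107 and 2399 on DR, and 2529 and 2565 on KD, and 2 of the 6 fell in DR against AL. For 8 endothelial markers the sums were between 173 and 204 CPM on AL, 169 and 176 on DR, and 191 and 203 on KD, and 1 of the 8 fell in DR against AL. Of 6 oligodendrocyte markers 1 fell in this comparison, and of 6 granule cell markers 0 fell. Among all genes tested in DR against AL, 1.74% fell. In bulk tissue, fewer cells of a type, less RNA per cell and lower levels of single marker genes cannot be told apart. The part of these shifts in the results given here was not tested.

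Levels differed widely between the genes and little between mice. Per kilobase of exon (all annotated exons of a gene merged), the highest level was that of Fabp3, a fatty acid binding protein, at 34.6 ± 3.87 CPM per kilobase (SD, n = 12). However, 21.7% of its 100-base stretches also occur in the pseudogene Fabp3-ps1, and 19.6% of its exon bases overlap Zcchc17. Acsl6 (27.7 ± 0.768), the acyl-CoA synthetase most typical of neurons, Acsl3 (25.7 ± 2.29), its relative on lipid droplets and the ER, and Acadvl (24.0 ± 1.32), the very long chain acyl-CoA dehydrogenase, came next in CPM per kilobase. Acsl6, Acsl3 and Acadvl each lay within the summed SDs of the next in this order, and Fabp3 stood above them. Of the exon bases of Acadvl, 42.9% overlap Dvl2, so its place in this order is uncertain, as is that of Fabp3. Etfa (20.8 ± 2.10), a subunit of the flavoprotein that takes electrons from the dehydrogenases, and Hsd17b4 (19.4 ± 0.453), a peroxisomal bifunctional enzyme, followed in CPM per kilobase.

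At the other end stood Cd36, at 0.0416 ± 0.0287 CPM per kilobase (SD, n = 12), Ppara at 0.568 ± 0.106, Acot1 at 0.681 ± 0.0842 and Pparg at 0.692 ± 0.0883. The last 3 did not differ beyond their spread. Of the receptors, Ppard was thus the most abundant, at 6.31 ± 0.351 CPM per kilobase (SD, n = 12), and the coactivator Ppargc1a, which works with PPARs in mitochondrial gene control, was at 10.1 ± 0.471. Among carnitine palmitoyltransferases, Cpt1c, a neuronal form in the ER with little enzyme activity, was at 17.9 ± 1.08 CPM per kilobase, above Cpt1a, the mitochondrial form of liver and glia, at 7.001 ± 0.327.

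**Figure D1:**
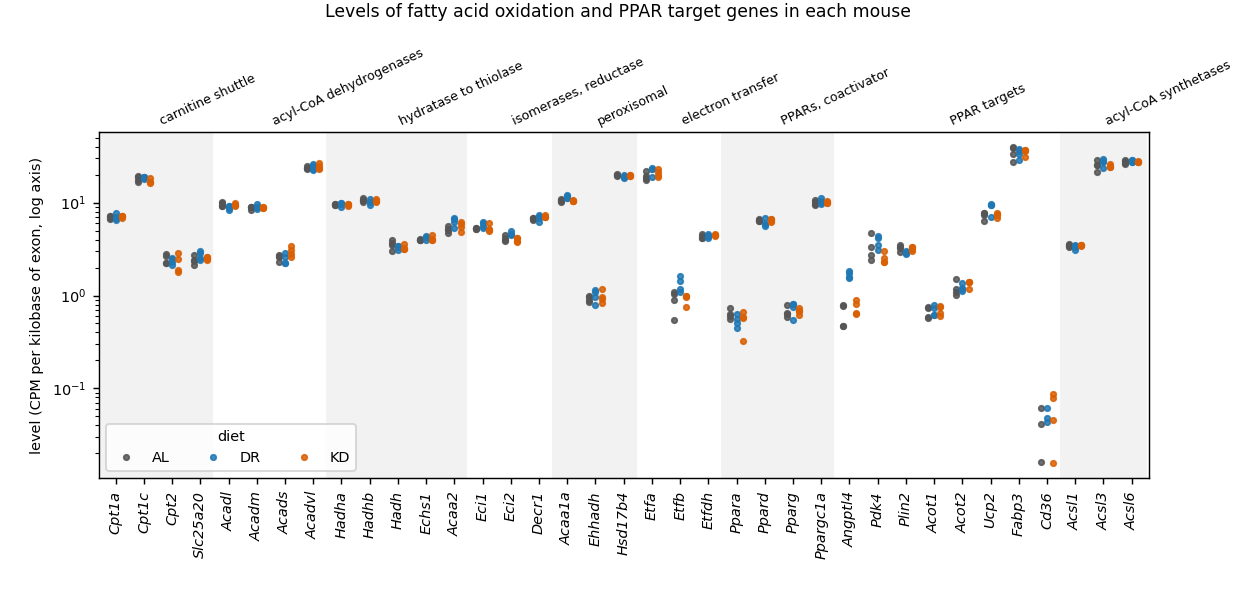
Level of each gene in each mouse, in CPM per kilobase of exon on a log axis, with points coloured by diet (4 mice each) and genes grouped by role along the x axis. The DR points of Angptl4 stand clear of both other diets, and 2 mice in which Cd36 had 0 reads are not drawn.

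Over the 12 mice, 22 of 36 genes had a coefficient of variation under 10% and 33 had one under 20%. In 28 of 36 the highest mouse was less than 1.5 times the lowest. The exceptions with the largest variation were Angptl4 (50.1%), Etfb (26.7%) and Pdk4 (26.0%), and the steadiest genes were Hsd17b4 (2.34%) and Hadha (2.41%). Etfb was counted from only 20 to 73 reads per mouse, and 58.2% of its exon bases are shared with the annotated gene Gm45233, so its values are uncertain.

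**Figure D2:**
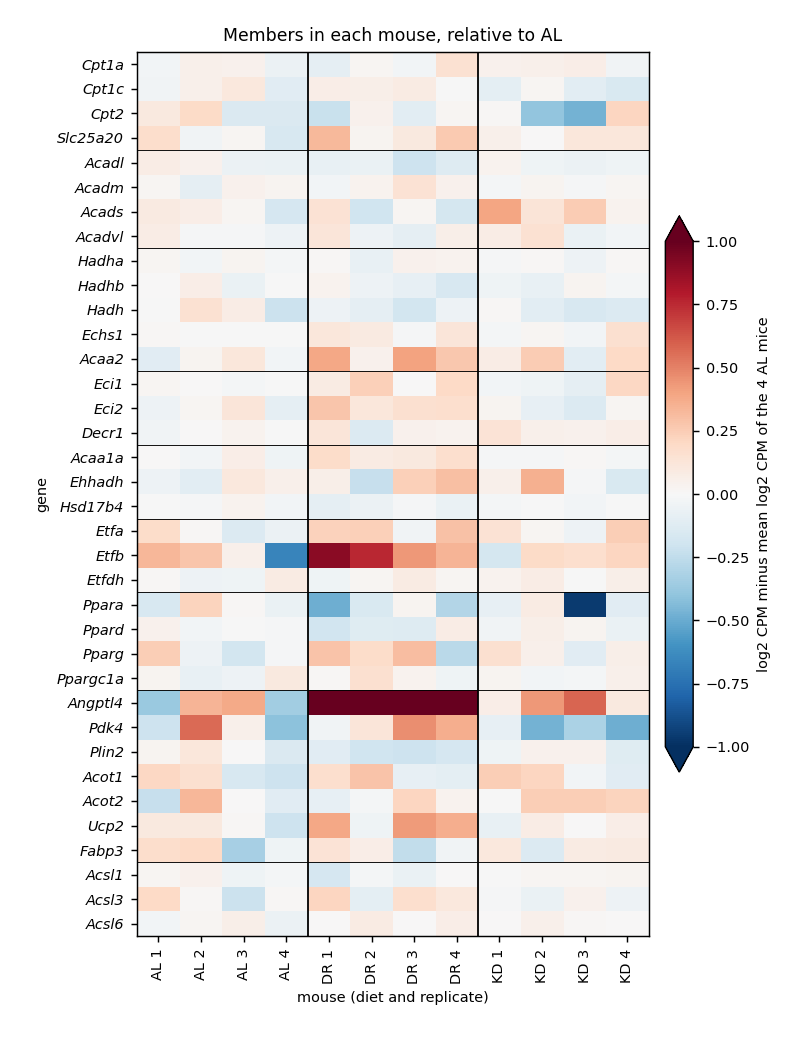
Each row is a gene and each column a mouse, and colour gives log2 CPM minus the mean log2 CPM of the 4 AL mice, with Cd36 left out. Most cells are pale, and the row of Angptl4 exceeds the colour scale in all 4 DR mice.

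What DR did to these genes against AL was asked first. Of the 36 genes tested, 1 rose and 0 fell (2.78% called), against 3.06% of all 19052 genes tested, of which 1.32% rose and 1.74% fell. The test was the quasi-likelihood test of edgeR on the 8 mice, and p-values were adjusted by Benjamini-Hochberg over every gene tested and called under 0.05. The gene that rose was Angptl4. The median log2 fold change of the 36 was 0.04, with 25 above and 11 below 0, and that of all genes was 0.00. Before adjustment, p was under 0.05 for 8 genes (7 higher, 1 lower), or 22.2%, against 18% of all genes, and 4 genes did not overlap between diets, or 11.1%, against 10.9% of all genes. These shares were near the background. For 32 of the 36 the 95% interval of the log2 fold change lay within 0.5 of 0, and for 21 within 0.3.

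Angptl4 (ENSMUSG00000002289.16, chromosome 17, 33773750 to 33781830, GRCm38.p6) encodes a secreted inhibitor of lipoprotein lipase and is a classic fasting-induced PPAR target. The 4 AL mice had 1.65, 2.71, 2.78 and 1.68 CPM, the 4 DR mice 5.64, 5.52, 6.50 and 6.13, and the 4 KD mice 2.23, 2.88, 3.20 and 2.29. Every DR mouse lay above every other mouse, by a clear gap, and AL and KD mice overlapped. From a mean of 2.21 ± 0.625 CPM (SD, n = 4) on AL to 5.95 ± 0.451 on DR, the log2 fold change was 1.43 (standard error 0.16, adjusted p = 0.000506 in edgeR), a 2.69-fold rise with a 95% interval of 2.11 to 3.43. In DR against KD, from 2.65 ± 0.469 CPM on KD, the log2 fold change was 1.17 (standard error 0.13, adjusted p = 0.000135 by the same test). In KD against AL it was 0.26 with a 95% interval of -0.15 to 0.68, and it did not pass (adjusted p = 0.994, edgeR). No exon base of Angptl4 is shared with another annotated gene. The 53 to 226 reads per mouse make it one of the less deeply counted genes here, and it stayed called whichever mouse was left out.

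Pdk4 (ENSMUSG00000019577.6, chromosome 6, 5483351 to 5496309) encodes a kinase that shuts down pyruvate dehydrogenase, the entry of glucose carbon into the citric acid cycle. The AL mice had 9.69, 16.6, 11.6 and 8.43 CPM, the DR mice 10.96, 12.2, 15.5 and 14.4, and the KD mice 10.6, 8.08, 9.002 and 8.01. The AL mice overlapped both other diets, and every DR mouse lay above every KD mouse. From 8.92 ± 1.21 CPM (SD, n = 4) on KD to 13.3 ± 2.06 on DR, the log2 fold change was 0.57 (standard error 0.11, adjusted p = 0.00802 by edgeR's quasi-likelihood test). With all 12 mice in 1 fit this adjusted p was 0.0514, so that call was lost. Against AL, at 11.6 ± 3.59 CPM, the log2 fold change was 0.19 on DR (95% interval -0.17 to 0.55) and -0.38 on KD (-0.73 to -0.03), and neither passed in edgeR (adjusted p = 0.603 and 0.994). Without AL replicate 2, which had 16.6 CPM, these values were 0.42 and -0.15, and without AL replicate 4 they were 0.07 and -0.50. These were the extremes of the 8 fits that left out 1 mouse, of which 0 passed in either comparison.

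Eci2 (ENSMUSG00000021417.15, chromosome 13, 34977748 to 35027096) encodes an enoyl-CoA isomerase that moves double bonds so that unsaturated fatty acids can be oxidised. Its values were 22.1, 23.1, 24.9 and 21.5 CPM on AL, 27.7, 24.7, 25.5 and 25.6 on DR, and 23.3, 21.6, 20.8 and 23.2 on KD. DR mice were all above KD mice, and the lowest DR mouse fell just below the highest AL mouse. From 22.2 ± 1.23 CPM (SD, n = 4) on KD to 25.9 ± 1.28 on DR, the log2 fold change was 0.22 (standard error 0.06, adjusted p = 0.0466 by edgeR's quasi-likelihood test), a rise of 16.6%. This call is close to the threshold and held in 1 of the 8 fits that left out 1 mouse, the one without DR replicate 2, with adjusted p between 0.0458 and 0.144 over the 8. In DR against AL the log2 fold change was 0.18 (95% interval 0.05 to 0.31, adjusted p = 0.144, edgeR).

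**Figure D3:**
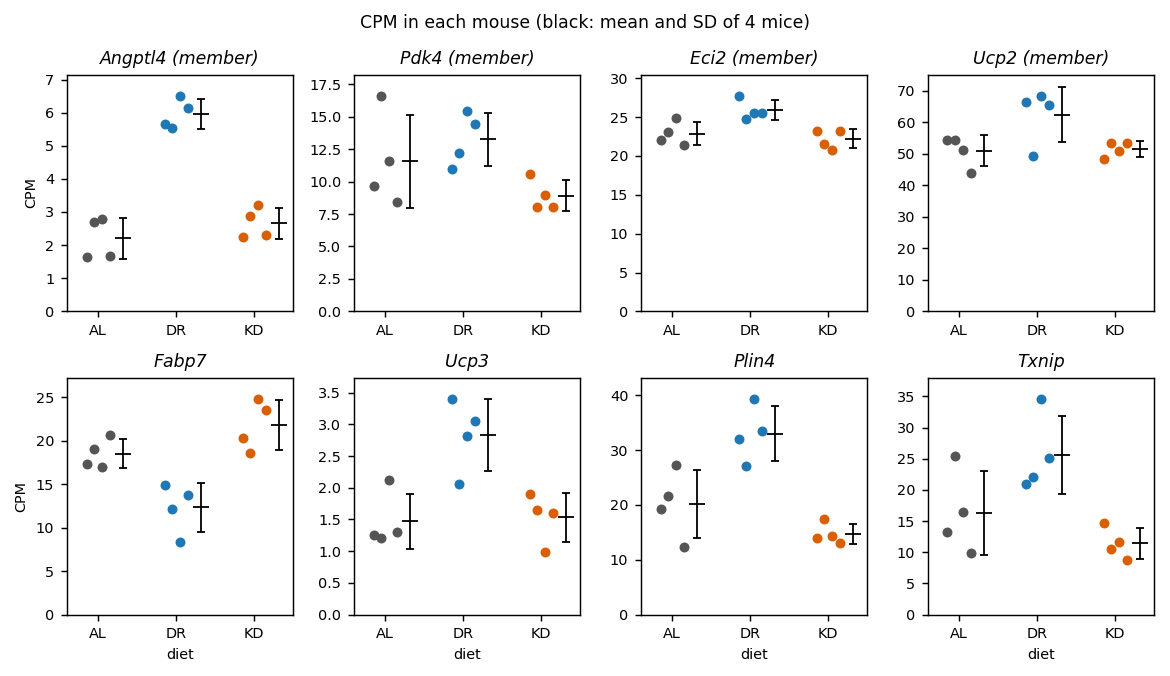
CPM in each mouse by diet, with the mean and SD of 4 mice in black beside the points, for 3 genes called in at least 1 comparison (Angptl4, Pdk4, Eci2), for Ucp2, and for 4 other genes of the pathways (Fabp7, Ucp3, Plin4, Txnip). The 4 DR mice stand above all others in Angptl4, while in Ucp2 DR replicate 2, at 49.3 CPM, lies among the AL and KD mice.

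The other PPAR targets showed no called difference in any comparison. Ucp2, a carrier of the inner mitochondrial membrane linked to fatty acid use, had 54.4, 54.3, 51.2 and 43.9 CPM on AL, 66.5, 49.3, 68.2 and 65.3 on DR, and 48.2, 53.4, 50.9 and 53.3 on KD. 3 of the 4 DR mice were above all AL and KD mice. Its log2 fold change was 0.29 in DR against AL (95% interval 0.10 to 0.48, adjusted p = 0.102) and 0.28 in DR against KD (0.11 to 0.45, adjusted p = 0.0538), both by edgeR's quasi-likelihood test. Without DR replicate 2 both passed, at 0.39 on the log2 scale (adjusted p = 0.00961, edgeR) against AL and 0.38 (adjusted p = 0.000507, edgeR) against KD. That was the only 1 of the 8 fits leaving out 1 mouse in which either passed. Over the 8, adjusted p in edgeR reached 0.252 against AL and 0.156 against KD. With no mouse left out, Ucp2 passed in 2 of 6 alternative settings in DR against AL and in 3 of 6 in DR against KD. DR replicate 2 also had the most blood marker RNA, with 187 CPM of the haemoglobin gene Hba-a1 against 65.2 to 86.3 in the other DR mice. The 5 blood markers summed to between 275 and 423 CPM on AL, 176 and 494 on DR, and 238 and 270 on KD, 0 of the 5 were called in any comparison, and their part in the Ucp2 values was not tested. Plin2, a lipid droplet coat protein, had a mean of 11.4 ± 0.831 CPM on AL, 10.1 ± 0.304 on DR and 11.3 ± 0.621 on KD (SD, n = 4 each), with a log2 fold change of -0.18 in DR against AL (95% interval -0.34 to -0.01). Fabp3 ranged from 22.4 to 32.4 CPM over all mice, with diet means of 28.5 on AL, 27.9 on DR and 29.0 on KD. The thioesterase genes Acot1 (2.22 to 3.12 CPM) and Acot2 (2.22 to 3.28 CPM), neighbours whose products release free fatty acids from CoA, share 12.3% and 17.1% of their 100-base stretches with each other, and reads could be split between them. Their log2 fold changes lay between -0.14 and 0.17 in the 3 comparisons.

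The receptors themselves did not pass in any comparison. Ppara, the main PPAR of fasted liver, had means of 2.41 ± 0.276 CPM on AL, 2.07 ± 0.311 on DR and 2.06 ± 0.572 on KD (SD, n = 4 each), and KD replicate 3 was lowest, at 1.23 CPM. Its log2 fold change was -0.22 both in DR against AL (95% interval -0.56 to 0.11) and in KD against AL (-0.63 to 0.19), so at 45 to 108 reads per mouse and this spread a difference of that size was not detectable. Ppard, the widespread form, ranged from 42.4 to 50.9 CPM and Pparg, the fat cell form, from 1.62 to 2.42 CPM. Ppargc1a had means of 66.1 ± 3.56 CPM on AL, 68.1 ± 4.08 on DR and 66.5 ± 1.73 on KD, and its intervals in the 3 comparisons lay between -0.09 and 0.16.

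Entry of fatty acids into mitochondria showed no called difference. Cpt1a, whose product is the regulated gate of the carnitine shuttle, had 29.8 ± 1.08 CPM on AL, 30.1 ± 2.20 on DR and 30.4 ± 0.983 on KD (SD, n = 4 each). Its log2 fold change was 0.02 in DR against AL (95% interval -0.11 to 0.15) and 0.03 in KD against AL (-0.07 to 0.14). Cpt1c had means of 101 CPM on AL, 104 on DR and 95.4 on KD, and its DR against KD difference of 0.13 on the log2 scale had an adjusted p of 0.111 (edgeR). Cpt2, the inner membrane enzyme, ranged from 4.24 to 6.85 CPM, and Slc25a20, the carnitine carrier between them, had 11.6 ± 1.14 CPM on AL, 13.1 ± 1.26 on DR and 12.1 ± 0.440 on KD. The log2 fold change of Slc25a20 in DR against AL was 0.18 (95% interval -0.01 to 0.37). Before entry, acyl-CoA synthetases attach CoA to fatty acids. Acsl1, a form tied to oxidation, ranged from 32.3 to 37.3 CPM, Acsl3 from 94.1 to 127 and Acsl6 from 260.3 to 287, with log2 fold changes between -0.08 and 0.12 over these 3 genes and all comparisons.

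The first step of the cycle, by acyl-CoA dehydrogenases, did not pass either. Acadm, the medium-chain enzyme, had 34.4 ± 1.47 CPM on AL, 35.6 ± 1.81 on DR and 34.5 ± 0.566 on KD (SD, n = 4 each), and Acadvl, of whose exon bases 42.9% overlap Dvl2, ranged from 59.9 to 71.2 CPM. Acadl, the long-chain enzyme, had 20.3, 19.8, 18.5 and 18.4 CPM on AL, 18.3, 18.4, 16.7 and 17.6 on DR, and 19.7, 18.7, 18.5 and 18.7 on KD. All 4 DR mice lay below the others, though the highest DR and the lowest AL mouse were almost level, and the log2 fold change of -0.12 in DR against AL had an adjusted p of 0.345 (edgeR). Acads, the short-chain enzyme, had means of 5.83 ± 0.462 CPM on AL, 5.63 ± 0.656 on DR and 6.73 ± 0.745 on KD, with a log2 fold change of -0.25 in DR against KD (95% interval -0.49 to -0.02, adjusted p = 0.215, edgeR).

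Of the 5 genes of the later steps, Hadha was among the steadiest. Hadha and Hadhb encode the 2 chains of the mitochondrial trifunctional protein, which runs these steps for long chains. Hadha ranged from 79.1 to 85.7 CPM and Hadhb from 62.8 to 73.3, and 14.8% of the 100-base stretches of Hadhb also occur in Gm13910. Echs1, a short-chain hydratase, ranged from 32.4 to 36.9 CPM and Hadh, a short-chain hydroxyacyl-CoA dehydrogenase, from 15.1 to 19.5. Acaa2, the thiolase that splits off acetyl-CoA, was the 1 gene of these 5 with an unadjusted p under 0.05 in DR against AL, with 7.78 ± 0.506 CPM on AL, 9.43 ± 1.04 on DR and 8.39 ± 0.896 on KD (SD, n = 4 each). Its log2 fold change of 0.28 in DR against AL (95% interval 0.08 to 0.49) had an adjusted p of 0.133 (edgeR). For unsaturated fatty acids, Eci1, the partner of Eci2, had means of 11.2 CPM on AL, 12.3 on DR and 11.3 on KD, and Decr1, the dienoyl-CoA reductase, had 26.1 on AL, 26.5 on DR and 27.4 on KD.

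In peroxisomes, Acaa1a, a thiolase, had 46.6, 45.7, 48.7 and 45.0 CPM on AL, 52.7, 49.1, 49.8 and 52.4 on DR, and 46.1, 46.0, 46.9 and 45.9 on KD. Each DR mouse lay above all AL and KD mice. The log2 fold changes of 0.13 in DR against AL (95% interval 0.03 to 0.23, adjusted p = 0.147) and 0.14 in DR against KD (0.05 to 0.24, adjusted p = 0.0748) did not pass in edgeR's quasi-likelihood test. Of its 100-base stretches, 7.21% also occur in Acaa1b, and 6.57% of its exon bases overlap Myd88. Ehhadh, a bifunctional enzyme strongly induced by PPAR alpha in liver, ranged from 2.34 to 3.51 CPM, with intervals in the 3 comparisons between -0.28 and 0.41 on the log2 scale. Hsd17b4 ranged from 62.9 to 68.8 CPM.

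Electron transfer was carried by Etfa, at 35.7 ± 3.46 CPM on AL, 40.5 ± 3.90 on DR and 38.0 ± 3.48 on KD (SD, n = 4 each), by Etfb, and by Etfdh, the link to ubiquinone, at 31.3 to 34.4 CPM in all mice. Etfa had a log2 fold change of 0.18 in DR against AL (95% interval 0.02 to 0.35, adjusted p = 0.230 by edgeR's test). For Etfb, with the reservation given above, the mice had 1.26, 1.21, 1.03 and 0.634 CPM on AL, 1.86, 1.68, 1.35 and 1.26 on DR, and 0.883, 1.14, 1.122 and 1.16 on KD. The lowest DR mouse and the highest AL mouse were almost level, and the log2 fold change of 0.56 in DR against AL had a 95% interval of 0.08 to 1.04 (adjusted p = 0.199, edgeR).

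A ketogenic diet supplies mostly fat, and KD against AL was the next comparison. None of the 36 genes passed edgeR's test, and neither did any of all 19036 genes tested (0%), while DESeq2's Wald test called 0 of these genes and 9 of all genes. Without a filter on low counts, edgeR called 1 of these genes, Pdk4 (adjusted p = 0.0139), and 118 of all genes. Before adjustment, 1 gene had p under 0.05, Pdk4, lower on KD, or 2.78%, against 4.87% (928) of all genes. The only gene of the 36 whose KD and AL mice did not overlap was Decr1, all 4 KD mice being higher, from 26.8 to 28.7 CPM against 25.5 to 26.7, or 2.78%, against 2.96% of all genes. The median log2 fold change was 0.02, with 22 genes above and 14 below 0, beside 0.00 for all genes. For 32 of 36 the 95% interval lay within 0.5 of 0 on the log2 scale, and for all 36 within 1. The 4 with wider intervals than 0.5 were Angptl4, Pdk4, Etfb and Ppara.

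DR and KD were then compared with each other, since both had been set against the same AL mice. Here 3 of 36 genes rose on DR, Angptl4, Pdk4 and Eci2, and 0 fell, or 8.33%, against 4.94% of all 19087 genes tested (2.51% rose and 2.43% fell on DR). Before adjustment, 9 genes had p under 0.05 (8 higher, 1 lower), or 25%, against 18.7% of all genes. The diets did not overlap in 6 genes, or 16.7%, against 11.8% of all genes: Angptl4, Pdk4, Eci2, Acaa1a and Etfb were higher and Acadl was lower on DR. The median log2 fold change was 0.03, beside 0.00 for all genes. Of the 36, 33 had a 95% interval within 0.5 of 0, the others being Angptl4, Pdk4 and Etfb.

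**Figure D4:**
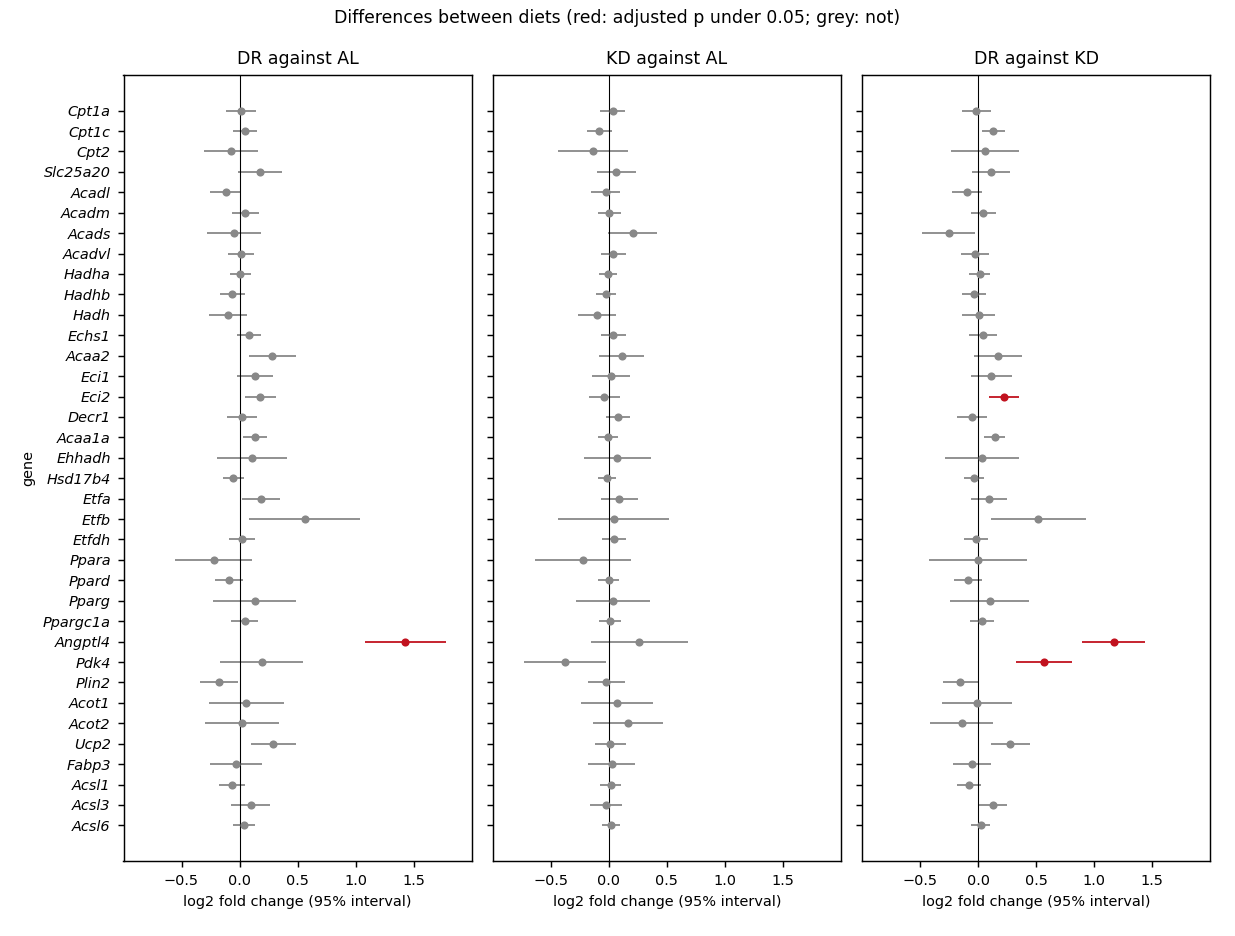
Log2 fold change of each of the 36 genes tested, with its 95% interval, in 3 panels: DR against AL, KD against AL and DR against KD. Red points passed an adjusted p of 0.05 in edgeR's test (Angptl4 in the first panel, and Angptl4, Pdk4 and Eci2 in the last), and intervals in grey mostly lie within 0.5 of 0.

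Angptl4 and Pdk4 are also known to respond to glucocorticoids. A list of 14 glucocorticoid-induced genes, such as Fkbp5 and Tsc22d3, summed to between 1003 and 1267 CPM on AL, 1218 and 1355 on DR, and 892 and 1045 on KD. Of the 14, 5 rose and 0 fell in DR against AL, beside 3.06% of all genes called. In DR against KD 10 rose and 0 fell, beside 4.94%. Not all of the list went up: 3 of the 14 had a log2 fold change below 0 in DR against AL, and 2 in DR against KD. Tsc22d3 had means of 137 CPM on AL and 131 on DR, and in Per1 every DR mouse lay below every AL mouse. In KD against AL 0 passed (0% of all genes), and 9 were lower at an unadjusted p under 0.05 in edgeR's test, beside 4.87% of all genes in either direction. The median log2 fold change of the list was 0.33 in DR against AL, 0.51 in DR against KD and -0.24 in KD against AL. The part of glucocorticoid signalling in the values of Angptl4 and Pdk4 was not tested.

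Outside the 37 genes, 77 further genes of the same pathways were listed, of which 66 were tested. They were chosen with earlier results of these data known, so their shares describe this list and do not test the pathways. In DR against AL, 7 rose and 2 fell, or 13.6%, against 3.06% of all genes. The count was 1 to 12 when single mice were left out, lowest without AL replicate 4. Among 17 further PPAR targets 3 rose, among 13 further carnitine and import genes 1 rose and 1 fell, among 11 further receptors and coregulators 1 rose and 1 fell, and 1 rose in each of the lists of 10 further mitochondrial and 15 further peroxisomal genes. Among the called genes with large changes were Ucp3 and Plin4, which rose, and Fabp7 and Ppargc1b, which fell.

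Ucp3, a mitochondrial carrier best known from muscle, rose from 1.47 ± 0.435 to 2.83 ± 0.567 CPM (SD, n = 4 each) in DR against AL, a log2 fold change of 0.95 (adjusted p = 0.0225, edgeR). Plin4, a lipid droplet coat protein, rose from 20.1 ± 6.21 to 32.9 ± 5.02 CPM, or 0.71 on the log2 scale (adjusted p = 0.0347, edgeR), with the lowest DR mouse just under the highest AL mouse. Fabp7, the fatty acid binding protein of Bergmann glia and astrocytes, fell from 18.5 ± 1.66 to 12.3 ± 2.85 CPM, a log2 fold change of -0.58 (adjusted p = 0.0284, edgeR). The part of the lower summed level of the glial markers in the fall of Fabp7 was not tested. Ppargc1b, a coactivator related to Ppargc1a, fell from 89.1 ± 3.26 to 67.9 ± 11.2 CPM, a log2 fold change of -0.39 (adjusted p = 0.0295, edgeR). For Fabp7 and Ppargc1b every DR mouse was below every AL mouse. Each of these 4 calls is close to the threshold: when 1 mouse was left out, Fabp7 and Ppargc1b kept theirs in 4 of 8 fits and Ucp3 and Plin4 in 2 of 8, with log2 fold changes that kept their sign.

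In DR against KD, 14 of the 66 rose and 4 fell, or 27.3%, against 4.94% of all genes. This share too describes a list chosen with earlier results of these data known. The 5 with the largest changes were Plin4 (log2 fold change 1.17), Txnip (1.16), Ucp3 (0.89), Fabp7 (-0.82) and Klf10 (-0.52), with adjusted p of 1.98e-05, 0.000448, 0.0168, 0.00217 and 0.00249 by edgeR's test. Txnip, which restrains glucose uptake, had means of 16.2 CPM on AL, 25.6 on DR and 11.4 on KD, and 19.4% of its exon bases overlap Gm15441. Klf10 encodes a transcription factor of metabolic and growth factor responses. In KD against AL 0 of the 66 passed edgeR's test, and DESeq2's Wald test called 1. In edgeR 8 had an unadjusted p under 0.05 (3 higher, 5 lower), or 12.1%, against 4.87% of all genes.

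The PPAR element is a direct repeat of the half-site AGGTCA with 1 base between, and it was sought as AGGTCANAGGTCA on both strands, from 250 bases before to 50 bases after each gene's start, in RefSeq promoters of GRCm38.p6. Of the 37 genes, 33 had 38 promoters there, and Angptl4, Acaa2, Decr1 and Hsd17b4 had none in the table. With at most 2 mismatches in the 12 defined bases, 5 of the 38 promoters held the repeat (13.2%), against 3.86% of all 32851. With up to 3 mismatches 10 of the 38 did, against 24.65% of all. With up to 4 mismatches 31 of the 38 did, against 79.8% of all. The higher share was thus seen at the cutoff of 2 mismatches and rests on 5 promoters. None of the 38 and 13 of all promoters held the repeat exactly. The half-site alone was in 10 of the 38 (26.3%), against 16.3% of all. A match is a description of these letters, not a binding site. The 5 matches follow with 8 flanking bases on each side, on the strand of the gene, with the 13 bases of the match, which may read on either strand, in capitals, as the closest matches among these genes.
Cd36 (chr5:17835939-17835967, minus strand): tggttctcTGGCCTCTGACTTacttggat
Plin2 (chr4:86670264-86670292, minus strand): agctttcaGGACCCCTGACCTaagtcaga
Echs1 (chr7:140116484-140116512, minus strand): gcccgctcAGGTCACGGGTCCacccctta
Etfa (chr9:55512300-55512328, minus strand): gcacacccTTACCTTTGCCCTactcccaa
Slc25a20 (chr9:108662134-108662162, plus strand): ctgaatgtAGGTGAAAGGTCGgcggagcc
The match began 63 bases before the start of Cd36, 225 before that of Plin2, 83 before that of Echs1 and 77 before that of Etfa, and in Slc25a20 it lay just after the start.

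The bases of the same window that lie before its annotated exons are shown for Pdk4 (219 bases) and Eci2 (113 bases), the called genes with a promoter in the table, each with its closest match to the repeat in capitals. Both matches had 4 mismatches, which 79.8% of all promoters reach, and neither gene had an exact half-site in the 250 bases before its RefSeq start.
Pdk4 (chr6:5496310-5496528, minus strand): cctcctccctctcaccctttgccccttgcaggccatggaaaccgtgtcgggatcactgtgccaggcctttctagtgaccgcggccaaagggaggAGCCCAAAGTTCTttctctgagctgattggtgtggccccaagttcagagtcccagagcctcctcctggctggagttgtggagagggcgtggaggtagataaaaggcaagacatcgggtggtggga
Eci2 (chr13:34994282-34994394, minus strand): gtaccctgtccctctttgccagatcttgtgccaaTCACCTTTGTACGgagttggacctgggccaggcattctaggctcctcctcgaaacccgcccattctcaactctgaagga
The Pdk4 stretch lies just before the annotated gene, whereas that of Eci2 lies within it, since other annotated transcripts of Eci2 start farther upstream. The printed stretches had GC contents of 58.9% and 54.9%. Of the 5 genes with at most 2 mismatches, Cd36 was not tested and the other 4 were called in no comparison, and elements farther from the start lie outside these windows.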

How the data were processed

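Poly(A) RNA of 12 libraries, 4 per diet, was prepared with an unstranded kit and sequenced in pairs. Per the submitters' processing notes and the study's methods, the authors trimmed reads with Trimmomatic 0.39, aligned them with STAR 2.7.0f to GRCm38.p6 and counted them per gene with featureCounts of Subread 1.6.4. The deposited values are raw counts for 54752 genes, without normalization. Whether counting used strand or multi-mapping reads is not given in the sources used here, so overlapping genes and close copies are named as uncertain.

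Diets were taken from the labels, which number no replicates, so mice were numbered in accession order. Symbols were matched for 54723 genes. Low counts were removed by filterByExpr at 10 counts (15 in total), and TMM factors were computed. Diets were then compared in edgeR 4.0.16 (R 4.3.3) by its quasi-likelihood test, calling a Benjamini-Hochberg adjusted p under 0.05. A fit held only the 8 mice of its 2 diets and no covariate, whereas CPM are scaled over all 12. Standard errors are the log2 fold change divided by the root of the F statistic. The procedure was tested on simulated data. Alternatives were other scalings, other filters, DESeq2 1.42.0, all 12 mice in 1 fit, and leaving out each mouse. They were run after results were seen for counts of other pathway genes and for genes called in no comparison. DR against AL and KD against AL share the AL mice.

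All 37 genes are named, called ones in every mouse, and of the other pathway genes at most the 5 called ones with the largest change per comparison. Values of 1 gene named by this rule are not reported here, while it stays in the counts. Ucp2, Acadl, Acaa1a and Etfb are given in every mouse and were chosen for this after their values were seen. The genes and lists were chosen with earlier results of these data known.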

Additional observations from a re-analysis of the deposited data

Results flagged for a closer look

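A mouse far from the other 3 on its diet was sought with Dixon's criterion in 108 groups of 4 (36 genes, 3 diets), of which chance alone flags about 1 in 20, and 6 were found. In Ucp2, DR replicate 2 had 49.3 CPM, below the 65.3 to 68.2 CPM of the other DR mice. The other 5 were KD mice. In Acadl, KD replicate 1 had 19.7 CPM against 18.5 to 18.7, and in Acaa1a, KD replicate 3 had 46.9 against 45.9 to 46.1. KD replicate 1 was low in Etfb, at 0.883 CPM against 1.122 to 1.16, and in Acot2, at 2.598 against 3.04 to 3.09. In Fabp3, KD replicate 2 had 25.7 CPM against 29.8 to 30.3.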

How the results depend on the processing

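No paired analysis was possible because the labels number no replicates. No fold change that passed in some fit reversed. The called genes among the 36 were 1 in DR against AL, and became 2 without a filter on low counts, 2 with DESeq2 and 0 above 10 CPM, where Angptl4 is removed by the filter itself. They were 0 in KD against AL and 1 without a filter (Pdk4, adjusted p = 0.0139 by edgeR), and 3 in DR against KD and 5 with scaling by library size only. Leaving out single mice gave 1 to 2 in DR against AL (2 without DR replicate 2), 0 to 0 in KD against AL and 2 to 5 in DR against KD (5 without DR replicate 2). Of 66 other pathway genes, 9 passed in DR against AL, and 1 to 12 when single mice were left out: 2 without AL replicate 1, 2 without AL replicate 2, 1 without AL replicate 4, 5 without DR replicate 1, 4 without DR replicate 3 and 5 without DR replicate 4. Lost calls in DR against AL were those of Fabp7 (without AL replicates 1, 2 or 4 or DR replicate 2, -0.61 to -0.53), Ppargc1b (without AL replicates 1, 2 or 4 or DR replicate 3, -0.41 to -0.38), Ucp3 (in all but the fits without AL replicate 3 and DR replicate 2, 0.85 to 0.95) and Plin4 (in all but the same 2 fits, 0.54 to 0.75, and with DESeq2), and in DR against KD that of Ucp3 (without DR replicate 1 or KD replicate 3, 0.73 to 0.79), all log2 fold changes. In KD against AL 0 passed, 4 without a filter and 1 with DESeq2, and 0 to 1 without single mice (1 without AL replicate 1 or 3). In DR against KD 18 passed, and 11 to 18 without single mice (11 without KD replicate 1 or 3). Of all genes, 583 passed in DR against AL, 1258 without a filter and 986 with DESeq2, and 235 (without DR replicate 3) to 712 (without AL replicate 3) when mice were left out. In KD against AL 0 passed, 118 without a filter and 9 with DESeq2, and 0 to 6 (without AL replicate 1) when mice were left out. In DR against KD 942 passed, 1503 without a filter, and 467 (without KD replicate 3) to 946 (without DR replicate 4) when mice were left out. The cause of these shifts was not tested. Pdk4 in DR against KD had a log2 fold change of 0.57 with all 12 mice in 1 fit and did not pass there (adjusted p = 0.0514, edgeR). For 24 genes with an unadjusted p of 0.05 or more in every comparison, all 990 alternative values kept their side of the threshold. Low counts limit Etfb, at 20 to 73 reads per mouse, and the 4 mice per diet limit every interval.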
